A study of Mus musculus with 384 samples.

Results

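AF32 is a mouse epiblast stem cell (EpiSC) line that was kept in activin and Fgf2. Its members here were the cells labelled AF32 with at least 3000000 summed counts, 80 of the 96 AF32 wells and 80 of the 326 cells kept from 4 lines. EpiSCs are primed pluripotent stem cells that resemble the epiblast shortly before and during gastrulation. They depend on activin, a ligand that activates the Nodal pathway through Smad2 and Smad3, and on Fgf, which signals through Erk. In the embryo Nodal induces its own antagonists Lefty1 and Lefty2 and its co-receptor Tdgf1, and high Nodal and Wnt activity mark the primitive streak.

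The study captured formative stem (FS) cells, which correspond to an earlier epiblast stage than EpiSCs, and set single FS cells beside single EpiSCs by Smart-seq2, a full-length method that gives 1 library per well. The FS cell lines 5ar1 and 5ar2 grew in 3 ng/ml activin with 2 µM XAV939, a tankyrase inhibitor that blocks canonical Wnt signalling, and BMS493, an inverse agonist of retinoic acid receptors. The EpiSC line AFX6 grew in 20 ng/ml activin with Fgf2 and 2 µM XAV939, and AF32 in 20 ng/ml activin with Fgf2 and no XAV939. The labels used here give no genotype, strain or sex for a line, and no treatment beyond the medium. Because each EpiSC medium was represented by 1 line, the line, the derivation and the medium cannot be told apart, no p-value was computed, and all differences below compare these cultures.

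Kept AF32 cells held 3022696 to 6283874 counts and 8955 to 11761 detected genes. The 16 AF32 wells left out held 23743 to 2829105 counts, so the limit fell between wells of 3022696 and 2829105 counts. Levels were expressed as CPM, the counts of a gene divided by all counts and multiplied by 1000000, either per cell or from the summed counts of a line, and 95% intervals (exact Poisson for sums, Clopper-Pearson for shares of cells) cover counting error only. Since the reads carry no molecular identifiers, several can stem from 1 molecule. A gene was called above in AF32 at 20 CPM or more and at least 2 times the highest of the other 3 lines, and called below where the lowest other line had at least 20 CPM and at least 2 times the AF32 level. A summed level does not tell fewer expressing cells from less RNA per cell, so the number of cells above 5 CPM is given beside it. Low values in single wells can be reads carried over between wells, which is why 5 CPM and not 1 read was taken as the limit.

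The expressed programme was that of a pluripotent culture without the naive factors. Pou5f1, the central pluripotency factor, stood at 533 CPM in AF32 against 644, 489.7 and 529 CPM in 5ar1, 5ar2 and AFX6, and 78 of 80 AF32 cells were above 5 CPM. Sox2, its usual partner, was low in every line, at 12.7 CPM in AF32 against 17.4, 17.5 and 4.88 CPM in 5ar1, 5ar2 and AFX6. It lay above 5 CPM in 33 AF32 cells. Of the epiblast genes that mark EpiSCs, Dnmt3b, a de novo DNA methyltransferase, stood at 616 CPM, Otx2, a homeobox factor of the post-implantation epiblast, at 110.3 CPM, and Fgf5, a growth factor of the same stage, at 44.9 CPM. All 3 had a higher summed level in 5ar1 and 5ar2 than in AF32, and in AFX6 only Otx2 did. Of the naive factors, Klf4 stood at 0.267 CPM, Esrrb at 0.354 CPM and Tfcp2l1 at 0.00562 CPM. No member of the trophoblast, endoderm, fibroblast, germline or Hox lists reached 20 CPM in AF32. Summed over all listed markers, the AF32 cells ranged from 0 to 176 CPM for trophoblast, 0 to 149 CPM for endoderm and 0 to 144 CPM for fibroblast genes, with medians of 0, 0 and 2.46 CPM. Of the visceral and parietal endoderm list, 1 gene exceeded 20 CPM, Apoe, a lipid carrier that many cell types make, at 553 CPM against 168, 209 and 1711 CPM in 5ar1, 5ar2 and AFX6.

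Corrected for exon length, the most abundant AF32 transcripts were largely those of protein synthesis, chaperones and glycolysis, with Lefty1 among them. The first 5 of 17174 protein-coding genes were the elongation factor Eef1a1 at 4329 CPM per kb, the cytokine Mif at 3244, the chaperone Hsp90ab1 at 2473, and the glycolytic enzymes Gapdh at 2434 and Aldoa at 2286 CPM per kb. Lefty1, the secreted Nodal antagonist, came sixth at 2172 CPM per kb. The ferritin chain Ftl1, the growth factor binding protein Igfbp2 and the ribosomal proteins Rplp1 and Rps2 completed the first 10, at 2054, 2001, 1994 and 1958 CPM per kb. Tdgf1 ranked 74, Pou5f1 189, Nanog 277, Nodal 1356, Ngfr 1747 and Id3 1901 on the same scale.

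Among the 6 genes that had been put forward as markers of the line, Lefty1, Nanog and Ngfr were called above, and Tdgf1, Nodal and Id3 were not. Lefty1 ran from 28.1 to 11127 CPM (median 3520.4) over the AF32 cells, against 0 to 181 CPM (median 0.389) in 5ar1, 0.411 to 197 CPM (median 2.18) in 5ar2 and 2.705 to 3164 CPM (median 329.8) in AFX6. Every AF32 cell was above 5 CPM, its median lay above the highest AFX6 cell, and the lowest AF32 cells overlapped the other lines. The summed level of 3818 CPM was 5.56 times that of AFX6. Nanog, a pluripotency factor that Nodal signalling maintains in the epiblast, ran from 0.590 to 1088 CPM (median 384) in AF32 and from 0.595 to 802 CPM (median 126) in AFX6. The medians were ordered AF32, AFX6 and then the FS cells at 21.5 and 28.0 CPM, with overlapping cells. Summed levels gave a 2.52-fold difference from AFX6, and 76 of 80 AF32 cells were above 5 CPM.

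Ngfr, a neurotrophin receptor, was present in some AF32 cells and close to absent in the other lines. It ran from 0 to 1021 CPM (median 9.94) in AF32, where 41 of 80 cells were above 5 CPM (51.2%, 95% interval 39.8 to 62.6), and the highest cells of 5ar1, 5ar2 and AFX6 reached 53.7, 45.6 and 39.9 CPM. After every cell was thinned to 1000000 counts the AF32 share was 52.5%. The summed level of 117 CPM was 24.4 times that of the next line, 5ar2. Ngfr lies on chromosome 11, whose genes as a set had raised summed levels in AF32. Outside a raised stretch described below, 14 of the 80 cells did not show this rise. The part of the rise in the Ngfr difference was not tested.

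Tdgf1, the Nodal co-receptor also known as Cripto, and Nodal itself were higher in AF32 than in AFX6 but short of 2-fold. Tdgf1 ran from 2.81 to 3776 CPM (median 1309.8) in AF32 and from 67.5 to 2885 CPM (median 757) in AFX6, with a 1.67-fold difference in summed level. The medians of both EpiSC lines lay above those of the FS cells, at 0.813 and 12.9 CPM, with overlap at the low end of AF32. Tdgf1 shares most of its sequence with a processed copy, Tdgf1-ps1, to which 31.9 CPM were assigned, so the division of reads between them is uncertain. Nodal ran from 0 to 429 CPM (median 78.7) in AF32, 62 of 80 cells were above 5 CPM, and its summed level of 94.7 CPM was 1.93 times that of AFX6, whose cells ran from 0 to 254 CPM (median 39.6) and overlapped AF32. In the FS cells Nodal stood at 5.46 and 5.32 CPM.

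Id3, an inhibitor of basic helix-loop-helix factors and a target of BMP signalling, split the cells. It ran from 0 to 631 CPM (median 0.195) in AF32 and was above 5 CPM in 20 of 80 cells (25%, 95% interval 16.0 to 35.9), against 36 of 90 cells in 5ar1, 42 of 90 in 5ar2 and 0 of 66 in AFX6. The summed level in AF32, 55.5 CPM, lay beside 41.6 and 47.7 CPM in the FS cells and far from 0.0932 CPM in AFX6. AF32 therefore differed in Id3 from the other EpiSC line and not by the call rule from the FS cells.

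**Figure D1:**
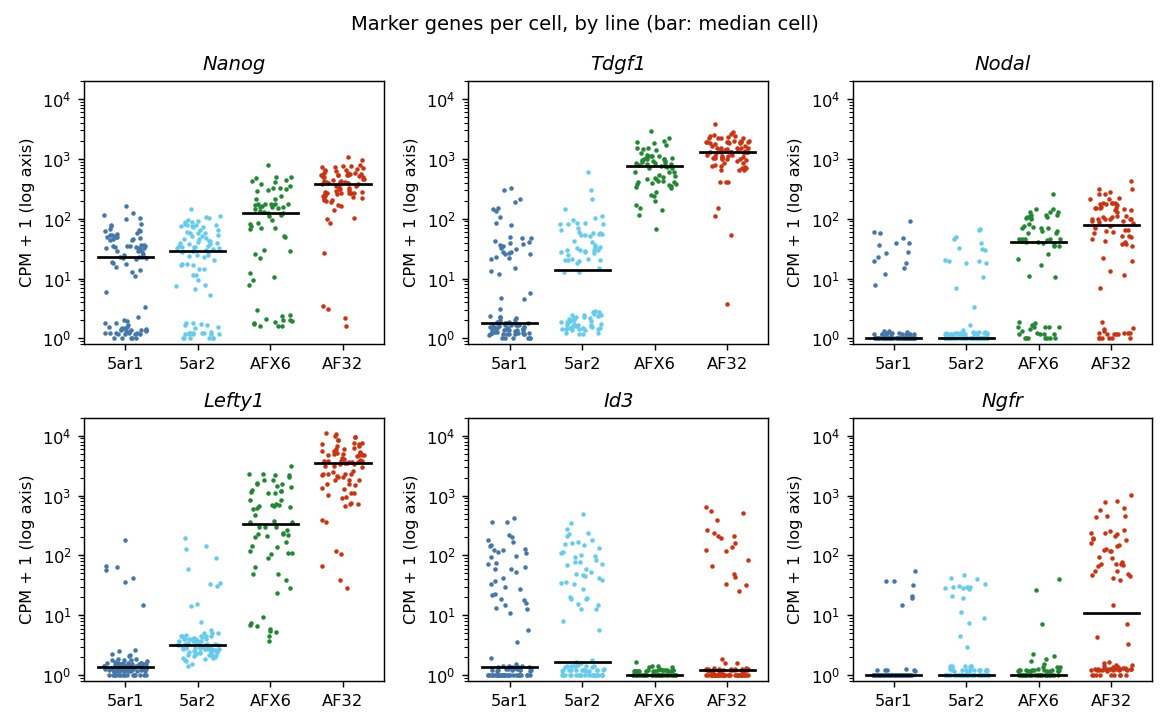
Each point is 1 kept cell, in CPM + 1 on a log axis, by line, for the 6 marker genes; bars are medians over cells. Lefty1 was shifted up over nearly all AF32 cells, Tdgf1 overlapped between AF32 and AFX6, and 41 of 80 AF32 cells carried Ngfr and 20 of 80 carried Id3 above 5 CPM.

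The promoters of Tdgf1 and Nanog are shown because both genes are known to respond to Nodal, and because each window held the letters AATNNACA, to which Foxh1, a DNA-binding partner of Smad2, is known to bind. The windows run from 250 bases before to 50 bases after a RefSeq transcript start on GRCm38.p6. They lie at chr9:110946109-110946408 on the minus strand for Tdgf1 and at chr6:122707239-122707538 on the plus strand for Nanog, and capitals mark matches on either strand.
Tdgf1: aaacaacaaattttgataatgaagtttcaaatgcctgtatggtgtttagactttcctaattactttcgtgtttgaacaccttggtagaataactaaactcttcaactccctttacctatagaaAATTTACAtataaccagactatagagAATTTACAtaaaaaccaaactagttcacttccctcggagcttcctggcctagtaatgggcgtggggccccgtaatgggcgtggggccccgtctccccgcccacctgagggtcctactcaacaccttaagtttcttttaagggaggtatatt
Nanog: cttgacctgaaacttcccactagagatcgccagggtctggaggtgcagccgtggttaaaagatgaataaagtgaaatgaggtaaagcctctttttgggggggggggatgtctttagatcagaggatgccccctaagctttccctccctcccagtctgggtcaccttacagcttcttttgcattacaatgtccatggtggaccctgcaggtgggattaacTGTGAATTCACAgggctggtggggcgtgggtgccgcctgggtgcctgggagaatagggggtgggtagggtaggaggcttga
In Tdgf1 the matches began 127 and 101 bases before the start, and in Nanog they began 31 and 27 bases before it and overlapped. Counted from a second RefSeq start of Nanog, the same matches lay 107 and 103 bases before it. The letters stood in 12.2% of all 32851 promoter windows, in 1 or more windows of 15 of 177 genes called above that had one (8.47%) and of 461 of 5767 genes of at least 20 CPM (7.99%). A match describes the sequence and is neither a binding site nor a cause.

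In the comparison with all 3 other lines, 234 of 7199 genes that reached 20 CPM in AF32 were called above (3.25%), and 76 of 5915 genes that reached 20 CPM in every other line were called below (1.28%). The same rule gave 26 genes above and 14 below for 5ar1, 18 and 26 for 5ar2, and 218 and 147 for AFX6. The FS cell lines share a medium, so each had a line like it among its comparators and AF32 had none, and the counts are not on an equal footing. Of the 234 genes, 172 were still called when the highest AF32 cell of each gene was left out.

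**Figure D2:**
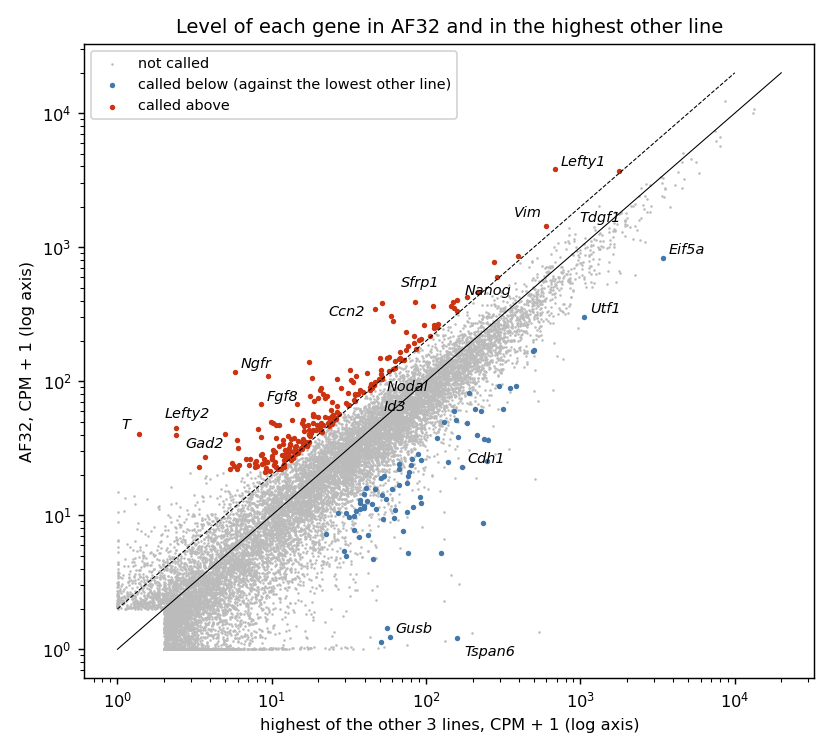
Each point is a gene, with its level in the highest of the other 3 lines on the x axis and its level in AF32 on the y axis, both in CPM + 1 of summed counts on log axes; the solid line marks equal levels and the dashed line 2-fold. Genes called above are red and genes called below, set against the lowest other line, are blue. Lefty1 stands out at the top and Tspan6 at the bottom.

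Several Nodal pathway genes were called above. Of 15 members that reached 20 CPM in AF32, 5 were called above (33.3%, against 3.25% of all genes). Of 7 that reached it in every other line 0 were called below. Of 16 that reached it in any line 11 had a higher and 5 a lower level than the mean of the other lines, and the list median was 0.73 on the log2 scale against 0.02 for all 7954 genes. Lefty2, Fst, Pmepa1, Smad3 and Smad7 reached 20 CPM in AF32 alone, so they entered these values through the line where they were high. The list was also chosen with earlier results of these data known, and its share does not measure the pathway as a whole. The members called included Lefty1, Lefty2, Fst and Pmepa1. Unlike Lefty1, Lefty2 came from few cells. It was above 5 CPM in 12 of 80 AF32 cells, had a median of 0 CPM and reached 1061 CPM in 1 cell, while its highest cells in the other lines reached 21.5, 33.6 and 51.0 CPM. Fst, the activin-binding protein follistatin, and Pmepa1, an inhibitor of Smad signalling, stood at 24.1 and 25.4 CPM, 2.55 and 4.36 times the next line.

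Of the Wnt targets and antagonists, 5 reached 20 CPM in AF32 and 4 of these were called above (against 3.25% of all genes), namely Sfrp1, Nkd1, Tcf7 and T, the last of which was no longer called without 1 cell. The 2 that reached 20 CPM in every other line were not called below, and the list median over 6 members was 1.82 on the log2 scale. Nkd1, Tcf7 and T reached 20 CPM in AF32 alone, so they entered the count and the median through the line where they were high. Neither value therefore describes the list as a whole. Sfrp1, a secreted Wnt antagonist, ran from 0.779 to 1974 CPM (median 275) in AF32 and stood at 84.2, 77.1 and 75.4 CPM in 5ar1, 5ar2 and AFX6, a 4.62-fold difference from the next line. It was the broadest of the 4, with 73 of 80 cells above 5 CPM. Nkd1, a feedback inhibitor that Wnt signalling induces, stood at 46.4 CPM in AF32 and 9.19, 7.24 and 10.2 CPM in 5ar1, 5ar2 and AFX6. Tcf7, a transcription factor of the pathway, stood at 42.2 CPM, 2.29 times the next line. Sfrp1 and Nkd1 lie on chromosome 8 and Tcf7 on chromosome 11. The genes of these chromosomes as a set had raised summed levels in AF32, and the part of that in these calls was not tested. Members under 20 CPM differed among themselves. The feedback target Axin2 stood at 2.54 CPM, with 11 of 80 cells above 5 CPM, beside 1.05 CPM in 5ar2, 2.68 CPM in AFX6 and a level close to the latter in 5ar1. Sp5, another direct target, stood at 0.225 CPM. In contrast Sp8, a zinc finger factor, stood at 6.45 CPM, with 23 of 80 cells above 5 CPM, against 0.443, 1.40 and 0.328 CPM in 5ar1, 5ar2 and AFX6. Notum, a Wnt-inactivating enzyme, stood at 4.29 CPM against 0.295, 0.386 and 0.463 CPM in 5ar1, 5ar2 and AFX6, and the ligand Wnt8a at 3.21 CPM against 0, 0.0345 and 0.262 CPM in 5ar1, 5ar2 and AFX6. Notum and Wnt8a came from few cells, with 4 and 7 of 80 AF32 cells above 5 CPM. Lef1, a partner of beta-catenin, stood at 14.2 CPM against 45.5, 33.5 and 13.4 CPM in 5ar1, 5ar2 and AFX6.

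T, the primitive streak factor Brachyury, had the highest fold of the genes called above and rested on a single cell. It was above 5 CPM in 2 of 80 AF32 cells, with a median of 0 CPM and a highest cell of 2369 CPM. The summed level of 39.1 CPM, 102 times the next line, was 0.357 CPM without that cell. The remaining AF32 cells thus held no more T than AFX6, at 0.382 CPM, and each other line had 1 cell above 5 CPM. Some other genes of the primitive streak were present in small numbers of AF32 cells at summed levels under 20 CPM, and the list had no common direction. Of its 4 members that reached 20 CPM in any line, 2 had a higher and 2 a lower level than the mean of the other lines. Foxa2, a factor of the anterior streak and endoderm, was above 5 CPM in 13 of 80 cells, against 0 in 5ar1, 1 in 5ar2 and 0 in AFX6. Tbx6, a factor of paraxial mesoderm, was above it in 9 AF32 cells, against 2, 1 and 5. Eomes, a T-box factor of epiblast and streak, showed another order, with 5.84 CPM in AF32 against 61.3, 48.2 and 6.62 CPM in 5ar1, 5ar2 and AFX6. In the same order of lines, Hand1 stood at 0.261 CPM in AF32 against 23.5, 0.0276 and 0.198 CPM. Snai1 stood at 1.61 CPM against 5.56, 7.78 and 1.20 CPM, and Wnt3 at 14.1 CPM against 6.43, 4.17 and 17.8 CPM. Of early neural factors, Sox1 was above 5 CPM in 16 AF32 cells, against 8, 18 and 1 in the same order of lines, and Nes and Tubb3 alone reached 20 CPM, neither of them called.

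Fgf8, an Fgf of the streak and of the early neural plate, was called above at 66.3 CPM against 0.529, 7.50 and 6.06 CPM in 5ar1, 5ar2 and AFX6. It ran from 0 to 842 CPM (median 6.20), and 42 of 80 AF32 cells were above 5 CPM. Gad2, the enzyme that makes the transmitter GABA, was above 5 CPM in 39 AF32 cells, stood at 38.5 CPM and was 27.5 times the next line. Ccn2, a matricellular protein and target of the Hippo effector Yap, ran from 0 to 1846 CPM (median 106) and stood at 7.55 times the next line. Sox9, a factor of neural crest and cartilage, was 6.10 times the next line at 105 CPM. It was above 5 CPM in 45 cells and, like Ngfr, lies on chromosome 11.

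Vim, the intermediate filament protein vimentin, ran from 54.6 to 12087 CPM (median 1022) in AF32, against 19.9 to 6495 CPM (median 358) in 5ar1, 75.2 to 2357 CPM (median 401) in 5ar2 and 1.40 to 2124 CPM (median 225) in AFX6. The AF32 median exceeded that of every other line while the cells overlapped, and the summed level was 2.39 times the next. Pdlim4, an actin-binding protein, was called at 12.8-fold, Tgm2, a protein-crosslinking enzyme, at 9.85-fold, Timp4, an inhibitor of matrix proteases, at 9.31-fold, and Efnb1, a membrane-bound ligand of Eph receptors, at 6.04-fold. All 4 stood between 22.1 and 109 CPM in AF32. Without the highest AF32 cell Tgm2 stood at 22.6 CPM, 5.64 times the next line, and Timp4 at 18.99 CPM, under the limit for a call. The open reading frame 6330403K07Rik, also on chromosome 11, stood at 138 CPM and 8.41 times the next line. Of 10 immediate early genes that reached 20 CPM in AF32, 2 were called above (20%, against 3.25% of all genes). Of 12 that reached it in any line 5 had a higher and 7 a lower level than the mean of the other lines, with a list median of -0.26 on the log2 scale. Fos was called at 7.18-fold and Egr1 at 2.44-fold, with 10 and 30 of 80 cells above 5 CPM. Fos reached 20 CPM in AF32 alone, so it entered the list count through the line where it was high. Without its highest cell Fos stood at 22.0 CPM, 4.43 times the next line.

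The genes called below were led by a few that were near 0 in AF32. Tspan6, a tetraspanin encoded on the X chromosome, stood at 157, 155 and 38.8 CPM in 5ar1, 5ar2 and AFX6 and at 0.216 CPM in AF32, where 0 of 80 cells were above 5 CPM. The highest AF32 cell held 0.893 CPM, against medians of 159.6, 144 and 25.3 CPM in the other lines. The AF32 level was 179 times lower than that of the lowest other line. Cthrc1, a secreted collagen-associated protein, Gusb, the lysosomal enzyme beta-glucuronidase, and Spp1, the matrix protein osteopontin, followed at 154, 83.8 and 72.6 times lower. Gusb is active in most tissues. It had a median of 41.5, 27.4 and 0.181 CPM in 5ar1, 5ar2 and AFX6, and 1 of 80 AF32 cells was above 5 CPM against 20 of 66 AFX6 cells. Gng3, a G protein subunit, was 14.0 times lower, and the remaining 10 of the 15 named genes lay between 4.27 and 6.93 times lower.

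Among genes of the pluripotent state, Fgf4 and Utf1 were called below. Fgf4, an autocrine Erk activator of early pluripotent cells, stood at 3.73 CPM in AF32 and at 44.2, 25.7 and 25.8 CPM in 5ar1, 5ar2 and AFX6. Utf1, a chromatin-bound factor of pluripotent cells, ran from 1.38 to 1007 CPM (median 233) in AF32, against 3.42 to 1665 CPM (median 801) in 5ar1, 1.31 to 1717 CPM (median 696) in 5ar2 and 104 to 2033 CPM (median 1043) in AFX6, and the AF32 cells overlapped all 3 lines. Its summed level was 2.39 times lower than in 5ar2. The core pluripotency list had 1 member called above, Nanog, and 1 below, Utf1, among 7 that reached 20 CPM in any line, with a median of -0.51 on the log2 scale. In the list of formative and primed factors 0 of 11 members that could be called above and 0 of 8 that could be called below were called, and the median over 13 was -0.22.

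Members of a list of p53 targets and apoptosis genes lay on the lower side, and few passed the call. All 16 that reached 20 CPM in any line had a lower level in AF32 than the mean of the other lines, 14 of them a lower level than every other line, and the list median was -0.99 on the log2 scale. The exceptions were Sfn, an adaptor protein, at 2.59 CPM against 0.766, 1.70 and 144 CPM in 5ar1, 5ar2 and AFX6, and Trp53inp1, a p53-induced nuclear protein, at 21.7 CPM against 25.5, 21.0 and 71.1 CPM in 5ar1, 5ar2 and AFX6. Of the 14 that reached 20 CPM in every other line, 2 were called below, Phlda3 and Cdkn1a, and the background was 1.28% of genes. Phlda3, a p53-induced inhibitor of Akt, ran from 0 to 204 CPM (median 21.4) in AF32 and stood at 36.0 CPM against 141, 235 and 226 CPM in 5ar1, 5ar2 and AFX6, 3.92 times lower. Cdkn1a, the cell-cycle inhibitor p21, stood at 47.7 CPM against 109.7, 134 and 182 CPM in 5ar1, 5ar2 and AFX6, 2.30 times lower. The AF32 cells summed to 258 to 2808 CPM over the whole list with a median of 888, and the medians of 5ar1, 5ar2 and AFX6 were 1675, 1840.2 and 1951 CPM. Trp53, the gene of p53 itself, is a member of the list and is counted among the 16, among the 14 and in the sums. It lies in a stretch of chromosome 11 with low expression in AF32, described below. Whether the other listed genes depend on Trp53 was not tested.

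Cdh1, the epithelial adhesion molecule E-cadherin, was called below. It ran from 0 to 523 CPM (median 0.422) in AF32, where 17 of 80 cells were above 5 CPM, against 0 to 525 CPM (median 66.7) in 5ar1, 0 to 396 CPM (median 28.7) in 5ar2 and 0.179 to 472 CPM (median 152) in AFX6. The AF32 median lay close to 0 and the highest AF32 cells overlapped the other lines. Over the 15 adhesion and intermediate filament genes that reached 20 CPM in any line, 1 was called above, Vim, and 1 below, Cdh1, with a median of -0.97 on the log2 scale. In AF32, 11 of them were lower than the mean of the other lines, 3 were lower than every other line and 2 were higher than every other line. Several stood highest in AFX6, such as the keratin Krt18 at 663 CPM, against 79.0, 172 and 85.4 CPM in 5ar1, 5ar2 and AF32. Of the genes that reached 20 CPM in AF32, 0 of 8 BMP and Id genes were called above, 1 of 12 Fgf and Erk pathway genes (Fgf8), 1 of 19 glycolysis genes (Egln3, a prolyl hydroxylase of the hypoxia response) and 1 of 24 genes of cholesterol and fatty acid synthesis (Srebf1, a regulator of lipid synthesis, on chromosome 11). Of those that reached it in every other line, 0 of 2, 1 of 7 (Fgf4), 0 of 17 and 0 of 24 were called below, in the same order.

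Genes called above were not spread evenly over the genome. Of the 230 that are protein-coding, 60 lay on chromosome 11 and 36 on chromosome 8, together 41.7%, where these chromosomes held 15.7% of the 7070 protein-coding genes that could be called. The median log2 level of AF32 over the mean of the other lines was 0.41 over the 711 protein-coding genes of chromosome 11 and 0.41 over the 478 of chromosome 8, against 0.17 on chromosome 2 and -0.24 on chromosome 15. Without the genes of chromosomes 8 and 11, 136 genes were called above.

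Along chromosome 11 the level did not follow the chromosome median throughout. A running median over 11 genes, computed for all chromosomes and all 4 lines, had its lowest value anywhere in AF32 around Cd68, at -1.89 relative to the chromosome median on the log2 scale, and the next lowest in any line was -0.95. The stretch of 35 genes from Vamp2 to Med11, at chr11:69088490-70453727 (GRCm38.p6, 1.37 Mb), was chosen after these values were seen. Of its genes, 33 had a lower level in AF32 than the mean of the other lines, the exceptions being Per1, a circadian clock gene, and Atp1b2, a sodium pump subunit, and the median was -1.27, or 0.415-fold. Among the 33, Cldn7, Tnk1, Gabarap, Slc16a13 and 2810408A11Rik stood above the lowest other line in AF32. Directly before this stretch, 75 genes at chr11:58009064-69008460 (11.0 Mb) were all higher than that mean, with a median of 1.15, or 2.22-fold, and 26 of them were called above. The other 601 genes of the chromosome had a median of 0.37.

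**Figure D3:**
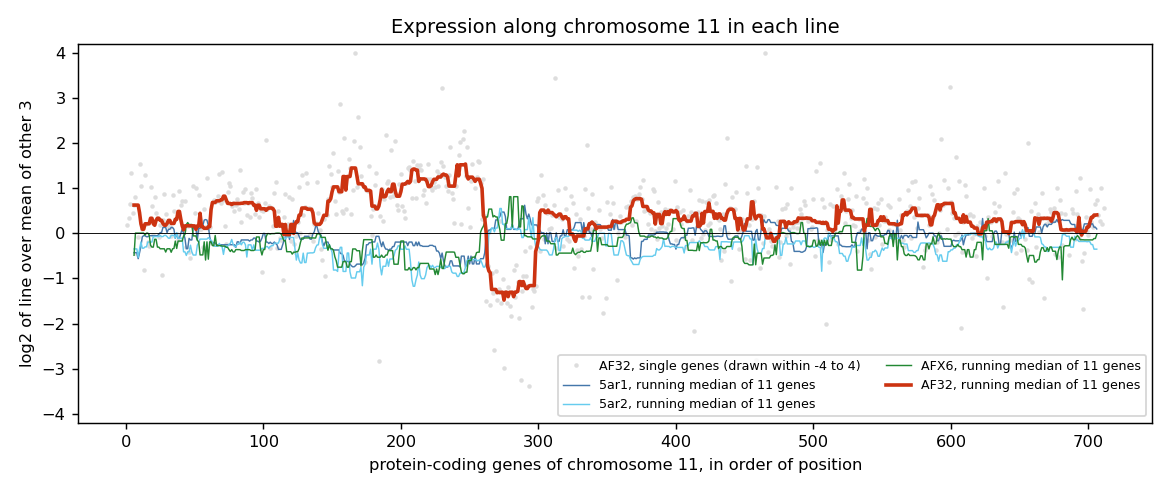
Each grey point is a protein-coding gene of chromosome 11 in order of position, with the log2 level in AF32 over the mean of the other 3 lines on the y axis; lines are running medians over 11 genes for AF32 (thick) and, computed alike, for each other line, which move opposite to AF32 because it is in their denominator. The raised stretch of 75 genes ends where the low stretch of 35 genes begins, and the rest of the chromosome lies near 0.37.

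The low stretch held genes that every cell uses. Eif5a, a translation factor, ran from 48.5 to 1731 CPM (median 781) in AF32, against 401 to 4782 CPM (median 3466) in 5ar1, 1847 to 4604 CPM (median 3338) in 5ar2 and 696 to 4592 CPM (median 2493) in AFX6. AF32 did not overlap 5ar2 and overlapped the lowest cells of 5ar1 and AFX6, and the summed level of 835 CPM was 2.93 times lower than in AFX6. Eif4a1, the RNA helicase of translation initiation, stood at 639 CPM against 1702, 1796 and 1242 CPM in 5ar1, 5ar2 and AFX6. Polr2a, the large subunit of RNA polymerase II, stood at 42.4 CPM against 132, 93.5 and 69.0 CPM in 5ar1, 5ar2 and AFX6, and Trp53 at 166 CPM against 446, 510.01 and 226 CPM in 5ar1, 5ar2 and AFX6. The 6 genes called below were Naa38, Tmem88, Fxr2, Tmem256, Eif5a and Med11. Naa38 overlaps Tmem88, and Trp53 lies next to Wrap53 on the opposite strand, so their division is uncertain in libraries that do not mark strand.

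The low stretch was found in AF32 cells throughout. Summed over its 35 genes, AF32 cells held 1086 to 3405 CPM with a median of 2354, against 3242 to 10912 (median 7064) in 5ar1, 5160.1 to 8779 (median 7089) in 5ar2 and 3545 to 9285 (median 5808) in AFX6. All 80 AF32 cells lay under the 5th percentile of each other line, and 1 of 90 5ar1 cells, 0 of 90 5ar2 cells and 0 of 66 AFX6 cells fell in the AF32 range. Conversely, 3 AF32 cells lay at or above the lowest 5ar1 cell. The raised stretch was less uniform. AF32 cells held 8651 to 20488 CPM (median 15459) over its 75 genes, against medians of 7924, 7726 and 7223 CPM in 5ar1, 5ar2 and AFX6, and its lowest cells overlapped the other lines. In AF32 wells that missed the depth limit but had at least 500000 counts (n = 13), the medians were 2175 CPM for the low and 15516 CPM for the raised stretch. In such wells of 5ar1 (n = 3), 5ar2 (n = 4) and AFX6 (n = 29) the low stretch had medians of 6834, 5311 and 3840.2 CPM. In these, 1 of 3, 0 of 4 and 9 of 29 wells lay at or under the highest kept AF32 cell, so these wells of 5ar1 and AFX6 overlapped AF32.

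AF32 cells with lower sums over the rest of chromosome 11 had the low stretch all the same. In 14 AF32 cells the remaining genes of chromosome 11 summed to no more than in the highest 5ar2 cell (89316 CPM). These cells ran from 68717 to 80067 CPM, with a median of 74660. The medians of 5ar1, 5ar2 and AFX6 were 83307, 81694 and 77811 CPM, so the remaining genes were not raised in the 14 cells. In the other 66 AF32 cells these genes summed to more, at 91203 to 115435 CPM. The highest cells of 5ar1 and AFX6 held 122955 and 109088 CPM over these genes, so both lines also had cells above the 5ar2 limit. The sets of 14 and 66 AF32 cells were formed from the same values and are described without a test. The low stretch had a median of 2776 CPM (1086 to 3405) in the 14 cells and 2194 CPM (1248 to 3371) in the 66 cells. The raised stretch differed, with 10158 CPM (8651 to 14891) in the 14 cells and 15793 CPM (12375 to 20488) in the 66. Copy number and expression cannot be told apart in these counts.

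**Figure D4:**
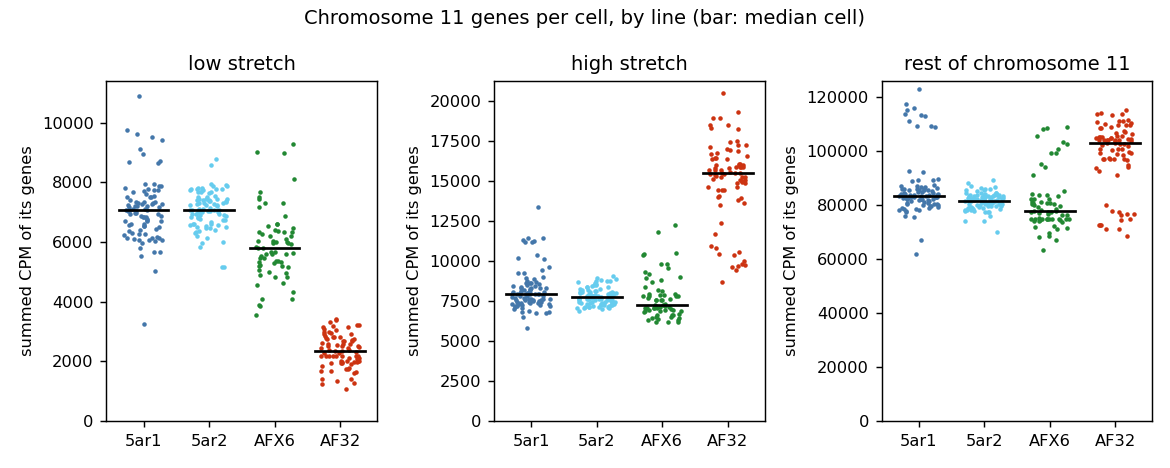
Each point is 1 kept cell, with the summed CPM of the genes of a stretch of chromosome 11 on the y axis, by line; bars are medians. In the left panel the 80 AF32 cells lie between 1086 and 3405 CPM, under the 5th percentile of each other line. In the middle panel the lowest AF32 cells overlap the other lines. In the right panel all AF32 cells lie within the range of the 5ar1 cells, and 14 of them lie at or under the highest 5ar2 cell.

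Variation between AF32 cells was described by the squared coefficient of variation of CPM, divided by the median of the 200 genes of nearest mean. At a ratio of 2 or more, 484 of 7216 genes averaging 20 CPM or more were called variable (6.71%), against 460, 358 and 394 in 5ar1, 5ar2 and AFX6. Of 358 AF32 genes that could be assessed in all 4 lines, 78 (21.8%) were variable in all 3 others and 139 (38.8%) in none of them. The markers spread over this scale. Ngfr had a ratio of 5.84, Id3 of 5.47 and Lefty1 of 4.22, and these were called variable, whereas Tdgf1 at 1.92, Nodal at 1.47 and Nanog at 1.36 were not.

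**Figure D5:**
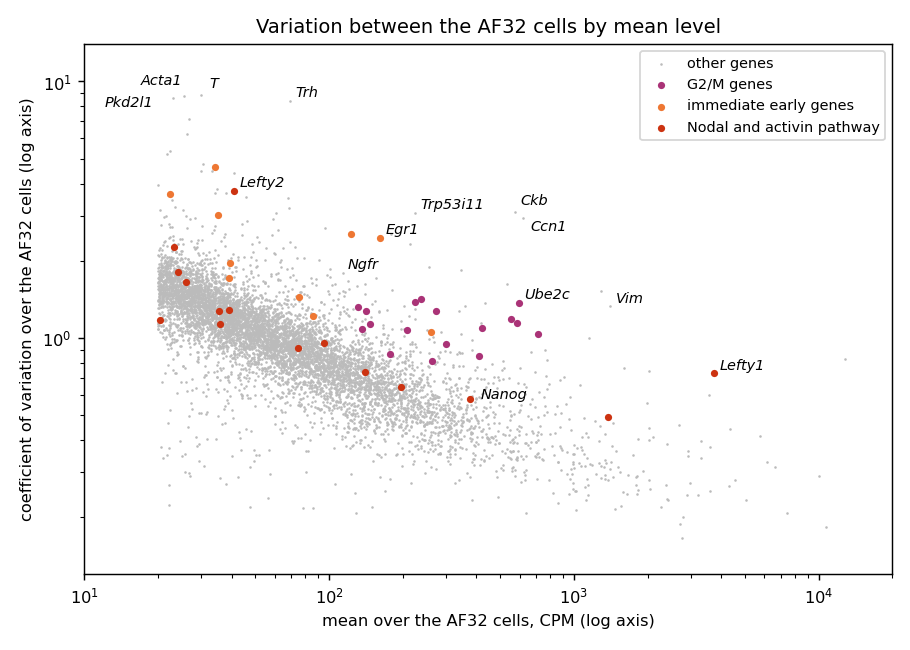
Each point is a gene of at least 20 CPM, with its mean CPM over the 80 AF32 cells on the x axis and its coefficient of variation on the y axis, both on log axes; colours mark G2/M, immediate early and Nodal pathway genes. Trh, Ckb, Ccn1 and T lie far above genes of like mean, the 17 G2/M genes such as Ube2c all lie above the bulk, and Nanog lies within it.

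The G2/M genes varied throughout. All 17 were called variable, against 6.71% of all genes, with a median ratio of 3.78. Ube2c, the ubiquitin-conjugating enzyme of the anaphase-promoting complex, ran from 1.59 to 3519.9 CPM (median 205), and Plk1, a mitotic kinase, ran from 0.172 to 1385 CPM (median 134). The genes moved together, with a median Spearman rho of 0.75 between pairs over the 80 cells, against 0.01 between all genes. The cells come from 1 line, the labels used here name no plate, and depth and detected genes differ between cells. These correlations are therefore a description. The summed G2/M level ran from 452 CPM at the 10th to 14318 CPM at the 90th percentile of AF32 cells, 31.7-fold, and the same quotient was 26.4 in AFX6, 3.39 in 5ar1 and 3.38 in 5ar2. A principal component analysis of 500 variable genes had the same axis as its first component, with 13.9% of the variance, a rho of 0.92 with the G2/M sum and 0.52 with the number of detected genes, and Plk1, Aurka, Ccnb1, Aurkb and Kif11 as the leading genes. The 500 genes were those of highest ratio and included the 17 G2/M genes. The rho with the G2/M sum therefore follows in part from the choice of genes.

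Promoters of Ube2c, Plk1, Aurka (a spindle kinase) and Cdc20 (an activator of the anaphase-promoting complex) are shown because these co-varying genes share the letters TTTGAA, known as the cell cycle genes homology region (CHR). The 300-base windows, from RefSeq on GRCm38.p6, lie at chr2:164769679-164769978 on the plus strand for Ube2c, chr7:122159185-122159484 on the plus strand for Plk1, chr2:172370521-172370820 on the minus strand for Aurka and chr4:118437294-118437593 on the minus strand for Cdc20. Capitals mark the match on either strand. None of the 15 G2/M genes held AATNNACA, so the motifs do not overlap there.
Ube2c: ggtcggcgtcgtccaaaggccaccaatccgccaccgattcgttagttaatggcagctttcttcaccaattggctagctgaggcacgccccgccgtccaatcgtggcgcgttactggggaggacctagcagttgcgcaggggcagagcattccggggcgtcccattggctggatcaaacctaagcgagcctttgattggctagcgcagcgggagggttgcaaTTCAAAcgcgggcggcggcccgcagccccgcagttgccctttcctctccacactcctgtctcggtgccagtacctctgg
Plk1: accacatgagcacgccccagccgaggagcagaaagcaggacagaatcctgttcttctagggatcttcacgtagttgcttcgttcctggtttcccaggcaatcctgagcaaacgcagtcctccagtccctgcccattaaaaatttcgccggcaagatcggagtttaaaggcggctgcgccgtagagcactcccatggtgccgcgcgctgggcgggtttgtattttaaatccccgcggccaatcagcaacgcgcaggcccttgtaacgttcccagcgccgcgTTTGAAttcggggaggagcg
Aurka: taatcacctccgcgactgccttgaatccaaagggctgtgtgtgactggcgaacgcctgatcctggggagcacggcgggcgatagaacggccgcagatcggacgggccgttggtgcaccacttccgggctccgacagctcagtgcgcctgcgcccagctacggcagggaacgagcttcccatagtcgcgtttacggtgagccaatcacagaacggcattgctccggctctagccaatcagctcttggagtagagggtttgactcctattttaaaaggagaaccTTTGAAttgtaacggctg
Cdc20: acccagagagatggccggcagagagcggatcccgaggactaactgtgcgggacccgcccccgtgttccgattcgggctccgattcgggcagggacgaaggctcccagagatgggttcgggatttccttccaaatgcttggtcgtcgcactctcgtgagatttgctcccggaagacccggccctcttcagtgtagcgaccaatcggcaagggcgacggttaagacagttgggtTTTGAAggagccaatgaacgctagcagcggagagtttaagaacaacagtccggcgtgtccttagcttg
The match began 29 bases before the start in Ube2c and 18 before it in Cdc20, and 30 and 32 bases after it in Plk1 and Aurka. Of the 15 G2/M genes with a promoter window, 11 held these letters (73.3%), against 17.9% of all windows and 14.3% of genes of at least 20 CPM in AF32. A match is a description here too.

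Other variable genes owed their ratio to single cells. Of the protein-coding variable genes, 10 had at least 90% of their summed CPM in 8 of the 80 cells. Trh, the precursor of thyrotropin-releasing hormone, had the highest ratio, 83.8. It was above 5 CPM in 6 cells, and a single cell, number 66 by the AF32 labels, held 5231 CPM. The same cell had the highest Lefty2, 1061 CPM, together with 79.5 CPM of Foxa2, a factor of node and endoderm. Without it Trh stood at 4.62 CPM. Next in ratio came Ckb, brain-type creatine kinase, at 53.7, Ccn1, a matricellular protein related to Ccn2, at 51.8, T at 41.0 and Acta1, skeletal actin, at 34.8.

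To find cells with a programme of their own, genes were listed that reached 100 CPM in a cell and at least 10 times every other AF32 cell. This rule, set after the values were seen, gave 76 genes in 23 cells. The other lines had 103 such genes in 8 cells (5ar1), 14 in 3 cells (5ar2) and 67 in 27 cells (AFX6).

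Cell 65 held 19 of the 76 genes, the most. They included Pax3 at 547 CPM and Msx3 at 493 CPM, factors of the dorsal neural tube, the proneural factor Neurog1 at 125 CPM, and Gata2 and Sp9, further transcription factors, at 264 and 329.9 CPM. Pkd2l1, the channel of cerebrospinal-fluid-contacting neurons, reached 1766 CPM there, and the summed level of Pkd2l1 in AF32 was 0.790 CPM without this cell. Cell 65 was also the highest AF32 cell for Ckb at 15651 CPM, Hes6, a factor of neurogenesis, at 4314 CPM and Tubb3, neuronal tubulin, at 1903 CPM. Pou5f1 and Nanog were still present, at 144 and 103 CPM, and Utf1 was at 1.56 CPM. Cells 65, 57 and 6 were among 5 AF32 cells with few detected genes, that is, under the line's median by over 3 times the median absolute deviation. Each well received 1 sorted cell, and whether any held a doublet was not tested.

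Cell 70 held 10 genes and all but a trace of the T reads. It had 2369 CPM of T, 848 CPM of Shh, the ligand of notochord and floor plate, 319 CPM of Lmx1a, a factor of the neural roof plate, and 111 CPM of the ligand Wnt8b. In contrast to cell 65 it held almost no pluripotency factors, with Pou5f1 at 1.89 and Nanog at 1.20 CPM. Cell 57 held 9 genes, among them Pou3f4 at 111 CPM, a neural factor, and Smad9 at 142 CPM, a Smad of the BMP pathway. It also had 633 CPM of Wnt1, 1483 CPM of Id2 and 12087 CPM of Vim, with Pou5f1 at 25.5 and Nanog at 2.04 CPM. The pattern in cell 57 was again one of low Pou5f1 and Nanog beside high Vim. Its Sox2, at 102.7 CPM, was the highest of the AF32 cells.

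AF32 cells without Pou5f1 or Nanog were rare. Pou5f1 was at or under 5 CPM in 2 AF32 cells, 70 and 74, and in 2, 1 and 1 cells of 5ar1, 5ar2 and AFX6. Nanog was at or under 5 CPM in 4 AF32 cells, 6, 57, 70 and 74, against 35 of 90 cells in 5ar1, 25 of 90 in 5ar2 and 13 of 66 in AFX6. Cell 74 had 794 CPM of Cdh11, a mesenchymal cadherin, and 64.6 CPM of Lefty1. In cell 6, by comparison, Nanog was at 2.54 CPM while Pou5f1 was at 537 and Lefty1 at 5366 CPM.

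Immediate early genes, which respond within minutes to growth factors or handling, also varied. Of 10 members averaging 20 CPM or more, 9 were called variable, against 6.71% of all genes, with Egr1 at a ratio of 15.0, Jun at 13.3 and Fos at 13.0. Cell 90 combined 2145 CPM of Egr1, 1077 CPM of Fos, 1469 CPM of Jun, 10229 CPM of Ccn1 and 2006 CPM of Acta1, with Pou5f1 retained at 994 CPM. Over all 80 cells the 10 genes were only loosely related, with a median rho of 0.13 between pairs. The pair Ccn1 and Ccn2 stood higher, at 0.53.

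Apart from the cell cycle, co-variation of the markers was weak. The gene most like Tdgf1 over the 80 cells was its pseudogene Tdgf1-ps1, with a rho of 0.96, and the next was Coq3 at 0.49. Nanog was nearest to S100a10 (0.42), Nodal to Naca (0.43), Id3 to Map3k7 (0.44) and Ngfr to 1700003F12Rik (0.56). Such values were the highest over all genes compared and identify no partner. Among pairs of genes described above, Tdgf1 with Pou5f1 had a rho of 0.42 and Lefty1 with Ngfr 0.37. Vim ran against Pou5f1 (-0.42), against Cldn6, a claudin of epiblast epithelium (-0.45), and against Cdh1 (-0.32). The second principal component, with 6.37% of the variance, placed Cldn6 and Ndrg1 at one end and Mfap2, 6330403K07Rik, Scrn1, Klhdc8b and Ckb at the other. The first 4 of the latter were also called above in AF32.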

How the data were processed

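Smart-seq2 libraries of 96 wells from each of 4 lines were analysed. Per the submitters' processing notes, the authors aligned reads with STAR 2.7.3a to GRCm38.p6 and counted them per gene with featureCounts 2.0.0. They deposited raw counts of 31617 genes and sctransform-corrected values, whole numbers of a depth-corrected scale, which were treated as a score and entered 1 alternative. The strand setting of the counting is not given in the sources used here.

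Cells with at least 3000000 counts were kept, counts were summed per line and scaled to CPM, and 31565 gene IDs were matched to GENCODE names and positions. No doublet caller was run on wells of 1 sorted cell. As 1 line stood for each EpiSC medium, no test was made, and cells were not taken as replicates. The call rules were tested on simulated data. Members, gene lists and rules were chosen with earlier results of these data known. Named genes were the 6 markers, the 15 protein-coding genes of largest fold in each direction, the 20 of highest variability ratio, the 10 of highest CPM per kb, called and most abundant list members, nearest genes by rho and leading component genes. Genes held by single cells, single cells, promoters and chromosome 11 stretches were chosen after their values were seen. Some listed symbols were not analysed here, and some genes that meet these rules are not reported here. Python 3.11.15, numpy 2.4.6, pandas 2.3.3, scipy 1.17.1, matplotlib 3.10.9 and R 4.3.3 were used, with edgeR 4.0.16 and DESeq2 1.42.0 for size factors of the summed counts only. Kept AF32 cells had a median of 4401633 counts, so 3 counts were 0.682 CPM in the median cell.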

Additional observations from a re-analysis of the deposited data

How the results depend on the processing

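The number of genes called above AF32's 3 comparators was 234 and followed the limits set. It was 1025 with a filter of 1 CPM, 524 with 5 CPM and 108 with 50 CPM, 620 at a fold of 1.5 and 38 at a fold of 4, 600 without the line AFX6, and 136 without genes of chromosomes 8 and 11 (an alternative chosen after seeing the data). The number called below was 76 and became 443, 193 and 31 under the same filters, 260 and 16 at those folds, 120 without 5ar1, 315 without AFX6 and 183 from the median over cells. The number of variable genes was 484 and became 738 with a filter of 5 CPM, 1098 at a ratio of 1.5, 118 at a ratio of 4 and 307 from the variance of log2 values. Under the remaining settings the counts were within 1.5 times of these. The number above was 215 with edgeR's TMM factors and 229 with DESeq2's size factors, and from the median over cells it was 169, of which 97 were also called from summed counts. The chromosome 11 stretches kept their direction in every setting run, at -1.12 to -1.69 and 1.04 to 1.24 on the log2 scale. For named genes, the log2 value over the nearest line changed sign for T (-0.026), Trh (-1.66) and Pkd2l1 (-1.05) without the highest AF32 cell of each gene, for Pkd2l1 without cells of few genes (-1.07) and for Mfap2 from the median over cells (-0.35). Of the 56 named genes, this value changed beyond the limit set, with the same sign, for 40 from the median over cells, 12 without AFX6, 6 without 5ar2, 5 without 5ar1, 3 without the highest cell, 2 with cells of at least 1000000 counts and 1 without cells of few genes, and for 0 with TMM or DESeq2 factors, the mean over cells, thinning or a higher depth limit. Gad2 stood at 2.84 with cells of at least 1000000 counts. No paired analysis was possible because the numbers shared by the labels name wells, not pairs, and the results come from no test. Counting error is small in sums of this depth, and the lack of a replicate line per medium limits all comparisons.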
